A study of Mus musculus with 8 samples.

Results

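De novo lipogenesis is the synthesis of fatty acids from acetyl-CoA, and 10 genes of this pathway were followed here in mouse liver, out of 56884 genes counted in each library. They were listed by name and role, with no threshold on their values: the regulators Srebf1, Mlxipl and Thrsp, the enzymes Acly and Me1 that supply acetyl-CoA and NADPH, the fatty acid synthesis enzymes Acaca, Acacb and Fasn, and the acylglycerol enzymes Gpam and Pnpla3. The question put to them was how their RNA differed between obese mice with and without docosahexaenoic acid (DHA), a long-chain n-3 fatty acid of fish oil, in the diet.

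All animals were C57BL/6J female mice, studied at 18 months of age. Both groups had first become diet-induced obese (DIO) mice over 4 months on food that gave 45% of its energy as fat. The 3 mice of the DIO group stayed on that diet. The 5 mice of the DIO + DHA group ate it with 15% of its lipids by weight exchanged for a concentrate from fish oil. The concentrate holds 683.4 mg/g DHA and smaller amounts of eicosapentaenoic acid and other n-3 fatty acids. The methods state that the DIO diet received the same tocopherols as the concentrate from then on, that mice were killed after an overnight fast, and that they were housed in shared cages. There was no lean group. The addition of DHA, that of the other n-3 fatty acids and the removal of other fat came together, so they cannot be told apart.

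In hepatocytes, SREBP1 (encoded by Srebf1) is the transcription factor through which insulin raises lipogenic genes, and ChREBP (encoded by Mlxipl) is the one that responds to glucose. SREBP1 is made as a membrane protein that must be escorted by SCAP and cut before it enters the nucleus, and the INSIG proteins hold it back. Dietary polyunsaturated fatty acids are known to lower SREBP1 activity in liver, and fasting lowers lipogenic gene expression.

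The promoters of 3 members are shown because these genes are discussed below: Thrsp was the member that fell, and Acaca and Acacb are sister enzymes. Neither Acaca nor Acacb passed the test, and their ratio is described only because it was picked after the values were seen. Each is the 250 bases before the start of the Ensembl canonical transcript of GENCODE mouse release 39, read from GRCm39 and written 5′ to 3′ in the direction of the gene, and capitals mark an E-box (CACGTG) or a sterol element (TCACNCCAC), both of which are in Acaca.
Thrsp, chr7:97066938-97067187, minus strand: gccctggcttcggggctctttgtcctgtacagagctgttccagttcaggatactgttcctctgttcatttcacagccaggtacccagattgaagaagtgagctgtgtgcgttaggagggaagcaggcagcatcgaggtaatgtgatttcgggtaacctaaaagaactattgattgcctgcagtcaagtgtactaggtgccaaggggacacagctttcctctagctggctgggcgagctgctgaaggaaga
Acaca, chr11:84063698-84063947, plus strand: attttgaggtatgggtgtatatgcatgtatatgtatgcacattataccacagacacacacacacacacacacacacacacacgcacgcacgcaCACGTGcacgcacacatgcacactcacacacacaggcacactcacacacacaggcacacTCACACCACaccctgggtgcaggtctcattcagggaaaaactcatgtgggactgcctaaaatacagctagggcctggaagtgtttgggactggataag
Acacb, chr5:114284057-114284306, plus strand: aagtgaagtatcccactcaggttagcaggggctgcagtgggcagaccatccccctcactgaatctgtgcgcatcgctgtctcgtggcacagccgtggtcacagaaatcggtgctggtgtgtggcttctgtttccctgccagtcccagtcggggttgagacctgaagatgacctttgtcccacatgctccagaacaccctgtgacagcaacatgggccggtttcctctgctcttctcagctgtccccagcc
The sterol element, the kind of sequence SREBP binds, was searched on both strands and lay at -98 to -90 from the start in Acaca. Of 21770 promoters of protein-coding genes of the same length, 1.12% hold it, and the windows of the other 7 members are not described. The E-box of Acaca lay at -157 to -152, and 6.26% of all these promoters hold one. The windows of Thrsp and Acacb held neither, nor a CCAAT box (CCAAT, in 36.5% of all promoters), a GC box (GGGCGG, in 36.3%) or a TATA box (TATAAA, in 11.9%). Both matches of Acaca lie in or beside CA repeats, which the shares of all promoters do not take into account. The matches describe letters and not binding. Thrsp, Acaca and Acacb have 4, 7 and 4 annotated coding transcript starts, so the start used in these livers is not known.

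Each library is the poly(A) RNA of 1 liver, read from 3′-enriched cDNA, and the deposited values are counts of reads per gene. Totals ran from 1723800 counts, in DIO replicate 1, to 5690347 counts (median 4495644). The unit of level is CPM, a gene's count relative to its library total after TMM scaling, and levels are compared between mice for the same gene, not between genes, since the counts were not divided by length. Differences are log2 fold changes of DIO + DHA over DIO from edgeR's quasi-likelihood test, given with the SE, and a gene is said to rise or fall where the Benjamini-Hochberg adjusted p over all 12412 tested genes was under 0.05. The p-values set a group difference against the spread between these mice, which was estimated with help from all tested genes. They do not cover anything besides diet that all mice of 1 group shared. In whole liver, fewer cells of a type and less RNA per cell cannot be told apart.

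Genes of other tissues and cell types differed between the groups, and their part in the results below was not tested. The counts of each list stand beside 7.89% of all tested genes that rose and 7.28% that fell. Of the hepatocyte list, led by Alb and Ttr, 1 of 8 members rose and 2 fell. The summed level, most of it Alb and Ttr, was 76000 to 80900 CPM in the DIO mice and 79200 to 92800 CPM in the DIO + DHA mice. Hepatocyte RNA was thus abundant in every library, which does not show that a library was free of other tissue. Of the skeletal muscle list, led by Acta1 and Tnnt3, 12 of 12 rose, with a sum of 31.8 to 38.3 CPM in DIO and 1250 to 1310 CPM in DIO + DHA. Stratified squamous epithelium genes, led by Krt4 and Krt13, rose in 4 of 4 tested of 9 listed, with sums of 0 to 0.361 CPM and 49.3 to 53.5 CPM. Adipocyte genes rose in 6 of 8 tested of 11 listed, with sums of 30.4 to 36.4 CPM and 65.3 to 88.1 CPM, and Plin4 fell. Plin4 (21.3 CPM in DIO, 11.3 CPM in DIO + DHA) made up most of the DIO sum. Lipe (8.80 and 13.0 CPM), which was not called, made up most of the rest. The sums thus differ by a smaller factor than the genes that rose. Cfd had the highest level among those that rose, at 1.39 CPM in DIO and 33.4 CPM in DIO + DHA, while Plin1 was at 0 in every DIO library and at 1 to 5 counts in the others, and Lep was at 0 in all libraries but DIO + DHA replicate 4. The 4 tested squamous genes and several muscle and adipocyte genes passed the filter on low counts only through the DIO + DHA group. A rise of those genes was thus nearly fixed in advance. Macrophage genes, led by Lyz2 and C1qb, fell in 9 of 10, with sums of 833 to 934 CPM and 480 to 507 CPM, and Marco rose. The clock genes, which follow the time of day, fell in 8 of 13 tested of 15 listed and rose in 0 (edgeR), with 9 lower and 1 higher at an unadjusted p under 0.05 and 8 lower and 0 higher by DESeq2. Their sum was 296 to 320 CPM in DIO and 197 to 211 CPM in DIO + DHA, led by Tef and Hlf, and the hour of tissue collection is not given in the sources used here.

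**Figure D1:**
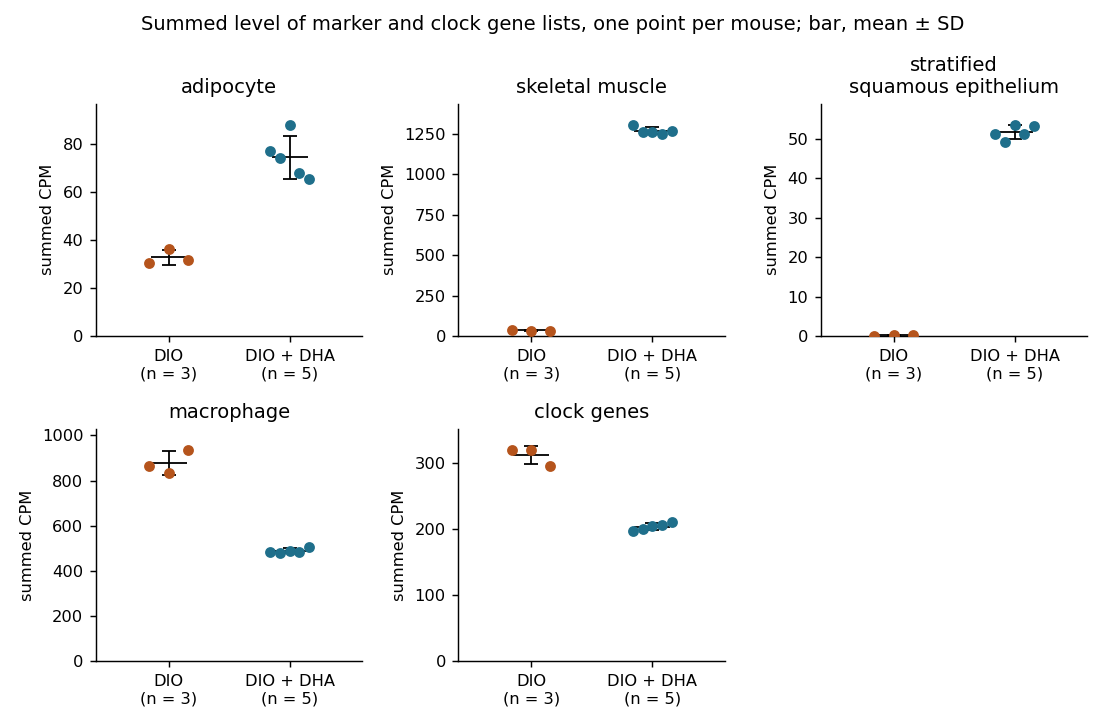
Summed level (CPM, vertical axis) of 4 lists of marker genes of other cell types and of the clock genes in each mouse, with points for mice and bars for the mean ± SD of DIO (n = 3) and DIO + DHA (n = 5). In each of the 5 panels the groups do not overlap; muscle genes sum to 1250 to 1310 CPM in every DIO + DHA mouse.

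Of the 10 lipogenic genes, 9 passed the filter on low counts, each with at least 27 counts in every library, and Pnpla3 did not. Fasn rose and Thrsp fell, and the other 7 did not pass the test. Over all tested genes 15.2% were called, 7.89% higher and 7.28% lower, and 1 of 9 in each direction is near that background. The groups did not overlap for 3 of the 9 (Fasn, Thrsp and Acacb), against 18.4% of all tested genes. The median log2 fold change of the 9 was -0.07, beside 0.00 over all tested genes. Of the 9, 4 had a positive value and 5 a negative one.

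**Figure D2:**
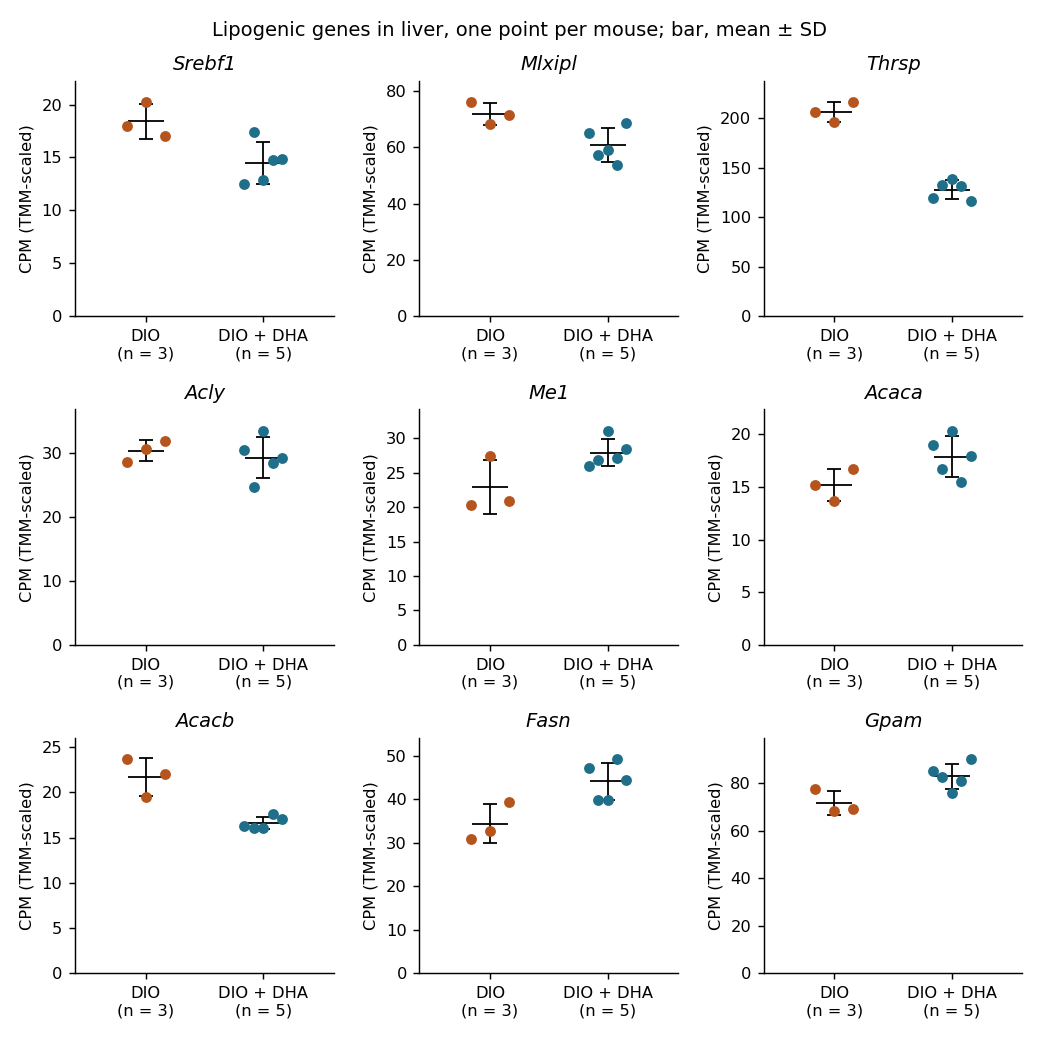
Level (CPM, vertical axis of each panel) of the 9 tested members in each mouse, with points for mice and bars for the mean ± SD of DIO (n = 3) and DIO + DHA (n = 5). Thrsp (195 to 216 against 117 to 139 CPM), Acacb and Fasn have groups that do not overlap.

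Among the regulators, Thrsp fell, and Srebf1 and Mlxipl had lower means in the DIO + DHA group without passing the test. Thrsp (chromosome 7, 97062145 to 97066937, minus strand, GRCm39) encodes Spot 14, a small protein induced by thyroid hormone and carbohydrate that promotes fatty acid synthesis. Its level was 206, 195 and 216 CPM in DIO replicates 1, 4 and 5. It was 119, 132, 139, 132 and 117 CPM in DIO + DHA replicates 1, 2, 4, 5 and 6. All 5 DIO + DHA mice lay below all 3 DIO mice. The group means (± SD) of 206 ± 10.1 CPM in 3 DIO mice and 128 ± 9.49 CPM in 5 DIO + DHA mice gave a log2 fold change of -0.69 (SE 0.08, edgeR adjusted p = 1.39e-10). Thrsp was called lower in all 18 alternative analyses, with log2 fold changes from -0.73 to -0.64. Its paralog Mid1ip1, which helps acetyl-CoA carboxylase to assemble into active filaments, did not pass, with 9.21 ± 0.762 CPM (SD, n = 3) in DIO and 12.2 ± 2.46 CPM (SD, n = 5) in DIO + DHA and a log2 fold change of 0.41 (edgeR adjusted p = 0.167).

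Srebf1 (chromosome 11, 60089915 to 60113407, minus strand) gives the SREBP1a and SREBP1c isoforms, which these 3′-enriched counts do not separate. Its level was 18.0, 20.2 and 17.0 CPM in DIO replicates 1, 4 and 5. It was 12.5, 17.4, 12.8, 14.8 and 14.8 CPM in DIO + DHA replicates 1, 2, 4, 5 and 6. DIO + DHA replicate 2 lay above the lowest DIO mouse, so the groups overlapped. The log2 fold change was -0.36 (SE 0.16, 95% CI -0.67 to -0.05), with an edgeR adjusted p of 0.116. Part of its exons, 3.11% of their length, is shared with Mir6922 and Rai1, and unstranded reads there were not assigned.

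Mlxipl (chromosome 5, 135118744 to 135167236, plus strand), the glucose-responsive factor, was at 75.9, 68.3 and 71.5 CPM in the DIO mice. In DIO + DHA replicates 1, 2, 4, 5 and 6 it was at 65.1, 57.3, 59.2, 53.6 and 68.8 CPM. Only DIO + DHA replicate 6 reached the DIO range. The log2 fold change was -0.22 (SE 0.09, 95% CI -0.41 to -0.03; edgeR adjusted p = 0.109), and without DIO + DHA replicate 6 it was -0.28 and was called (adjusted p = 0.0334, in a range of 0.0334 to 0.265 over the alternatives). The summed level of the 3 regulators was 284 to 304 CPM in DIO and 197 to 211 CPM in DIO + DHA. Thrsp, with means of 206 and 128 CPM, made up most of this sum and of its difference, so the sum largely restates the fall of Thrsp. The sum of the clock genes given above was also lower in the DIO + DHA mice. Of the 13 tested clock genes, however, 3 had a positive log2 fold change, 2 of them with no overlap between the groups. The part of the clock genes in these values was not tested.

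The enzymes that supply acetyl-CoA and NADPH did not pass the test. Acly (chromosome 11, 100367179 to 100418826, minus strand), ATP citrate lyase, cuts cytosolic citrate into acetyl-CoA and oxaloacetate. It was at 28.7, 30.7 and 31.9 CPM in the DIO mice and at 30.5, 24.8, 33.5, 28.6 and 29.3 CPM in the DIO + DHA mice. The groups overlapped, and the log2 fold change was -0.07 (SE 0.12, 95% CI -0.31 to 0.17; edgeR adjusted p = 0.797). Me1 (chromosome 9, 86463424 to 86578006, minus strand), malic enzyme, makes NADPH in the cytosol. It was at 20.3, 27.4 and 20.9 CPM in DIO replicates 1, 4 and 5 and at 26, 26.8, 31.0, 27.2 and 28.4 CPM in the DIO + DHA mice. DIO replicate 4 lay within the DIO + DHA range and the other DIO mice below it. The log2 fold change was 0.24 (SE 0.13, 95% CI -0.02 to 0.51; edgeR adjusted p = 0.241). Neither gene passed at an unadjusted p under 0.05, nor with DESeq2 or limma-voom.

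Of the fatty acid synthesis enzymes, Fasn rose, Acaca had a higher mean and Acacb a lower one in the DIO + DHA group. Fasn (chromosome 11, 120696672 to 120715373, minus strand), fatty acid synthase, joins malonyl-CoA units into palmitate. Its level was 30.9, 32.8 and 39.4 CPM in DIO replicates 1, 4 and 5. It was 47.2, 39.9, 40.0, 49.2 and 44.3 CPM in DIO + DHA replicates 1, 2, 4, 5 and 6. The groups did not overlap, but only narrowly, since the highest DIO mouse was next to the lowest DIO + DHA mouse. Mean levels (± SD) of 34.4 ± 4.44 CPM in 3 DIO mice and 44.1 ± 4.20 CPM in 5 DIO + DHA mice gave a log2 fold change of 0.34 (SE 0.11, 95% CI 0.12 to 0.57; edgeR adjusted p = 0.0270). The call did not hold with the Wald test of DESeq2 (adjusted p = 0.0879), with limma-voom at a log-odds B above 0 (adjusted p = 0.0367) or without DIO replicate 1 (0.0798), DIO replicate 4 (0.17), DIO + DHA replicate 1 (0.0806) or DIO + DHA replicate 5 (0.0819). Over all alternatives the log2 fold change was 0.29 to 0.48 and the adjusted p 0.00907 to 0.17. Fasn is also strongly expressed in adipocytes. The adipocyte sum was 77.2, 74.4, 88.1, 67.9 and 65.3 CPM in DIO + DHA replicates 1, 2, 4, 5 and 6. Whether RNA of adipocytes had a part in the Fasn rise was not tested.

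The acetyl-CoA carboxylases make malonyl-CoA: ACC1 (Acaca), in the cytosol, makes it for fatty acid synthesis, and ACC2 (Acacb), at mitochondria, makes it as an inhibitor of fatty acid entry for oxidation. Acaca (chromosome 11, 84020498 to 84292477, plus strand) was at 15.2, 13.7 and 16.7 CPM in the DIO mice and at 19, 16.8, 20.3, 15.5 and 17.9 CPM in the DIO + DHA mice. The groups overlapped, and the log2 fold change was 0.23 (SE 0.15, 95% CI -0.08 to 0.54; edgeR adjusted p = 0.377). Acacb (chromosome 5, 114284596 to 114388822, plus strand) was at 23.6, 19.5 and 22 CPM in the DIO mice and at 16.3, 16.1, 16.1, 17.6 and 17.0 CPM in the DIO + DHA mice. All DIO + DHA mice lay below all DIO mice, yet with a log2 fold change of -0.36 (SE 0.14, 95% CI -0.64 to -0.07) and an edgeR adjusted p of 0.0900 Acacb did not pass. It did not pass in any of the 18 alternatives, with adjusted p between 0.076 and 0.308.

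**Figure D3:**
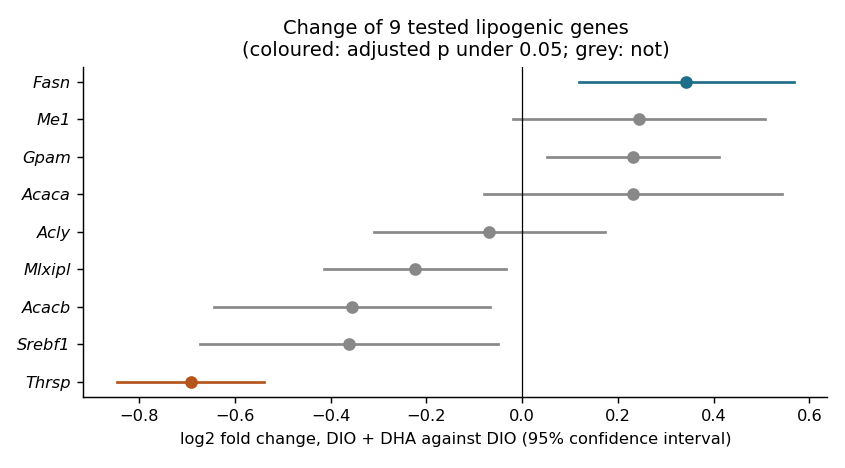
Log2 fold change of DIO + DHA over DIO (horizontal axis) for the 9 tested members in order of size, with points for the estimates, bars for the 95% confidence intervals and colour for genes that passed the test. Thrsp (-0.69) lies below 0 and Fasn (0.34) above it, and both passed the test; the intervals of Acly, Me1 and Acaca include 0.

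The ratio of counts of 2 genes within a library does not depend on how libraries are scaled, and 2 pairs were compared, which were chosen after the members' values were seen. The ratio of Acacb to Acaca counts was 1.56, 1.42 and 1.32 in DIO replicates 1, 4 and 5. It was 0.854, 0.960, 0.789, 1.14 and 0.951 in the DIO + DHA mice, all below the DIO mice. The difference was -0.62 on the log2 scale. The ratio of Fasn to Thrsp was 0.150, 0.168 and 0.183 in the DIO mice and 0.397, 0.301, 0.288, 0.373 and 0.380 in the DIO + DHA mice, again with no overlap, and the difference was 1.05 on the log2 scale. These ratios are of counts not divided by length, so their change between groups can be read and their size cannot. Since the pairs were picked for members that moved apart, the ratios are a description. An exact two-sided permutation test gave p = 0.0179 for each, the smallest that the 56 splits of the mice allow, and because of that choice nothing is read from it.

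**Figure D4:**
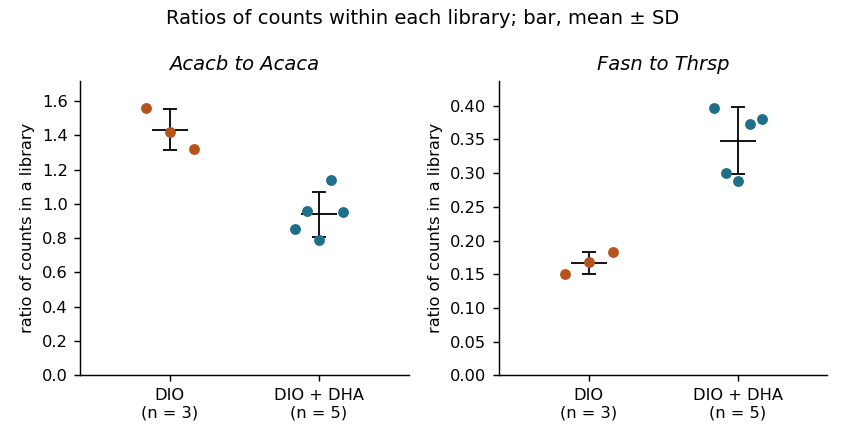
Ratio of read counts of 2 genes within each library (vertical axis), Acacb to Acaca and Fasn to Thrsp, with points for mice and bars for the mean ± SD of DIO (n = 3) and DIO + DHA (n = 5). Acacb to Acaca is 1.32 to 1.56 in DIO and 0.789 to 1.14 in DIO + DHA, and Fasn to Thrsp 0.150 to 0.183 and 0.288 to 0.397.

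Of the acylglycerol enzymes, Gpam (chromosome 19, 55055700 to 55115670, minus strand) encodes mitochondrial glycerol-3-phosphate acyltransferase, which starts triglyceride synthesis. It was at 77.6, 68.2 and 69.2 CPM in DIO replicates 1, 4 and 5 and at 84.9, 82.4, 76.0, 80.8 and 90.0 CPM in the DIO + DHA mice. DIO replicate 1 lay above DIO + DHA replicate 4 alone. The log2 fold change was 0.23 (SE 0.09, 95% CI 0.05 to 0.41; edgeR adjusted p = 0.0715), and without DIO replicate 1 it was 0.28 and was called (adjusted p = 0.0409, in a range of 0.0409 to 0.33 over the alternatives). Pnpla3 (chromosome 15, 84052038 to 84071437, plus strand), a lipid droplet protein whose gene is a target of SREBP1c, had 1, 0 and 0 counts in the DIO mice and 0, 0, 1, 0 and 1 in the DIO + DHA mice. It was at the limit of detection in both groups, where 3 counts amount to 0.232 CPM over the DIO libraries and 0.151 CPM over the DIO + DHA libraries, and no fold is given.

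Between mice of 1 group the members differed by amounts of the order of counting error, some above it and some below. The coefficient of variation of the 9 members was 4.9 to 17.3% in DIO and 4.03 to 13.6% in DIO + DHA, and it was at or below that of counting alone in 5 and 4 of the 9. For example, Me1 in DIO stood at 17.3% against 11.3% from counting, and Acacb in DIO + DHA at 4.03% against 12.7%. No mouse was high for every member: in the DIO + DHA group replicate 4 was highest for Thrsp, Acly, Me1 and Acaca, and replicate 5 for Acacb and Fasn. The sources do not say if reads were collapsed by molecular identifier, so these counting errors may be too small.

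Beyond these members, 57 genes around the pathway were listed by role, and all were tested. Of these, 13 rose, 9 fell and 35 did not pass, with a median log2 fold change of 0.08. Over all tested genes 7.89% rose and 7.28% fell, which is the background for these counts and for those by role below. Scd1, Insig2 and Elovl5 had the largest rises of the list. The counts are descriptions, and no list was compared with others by a test.

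**Figure D5:**
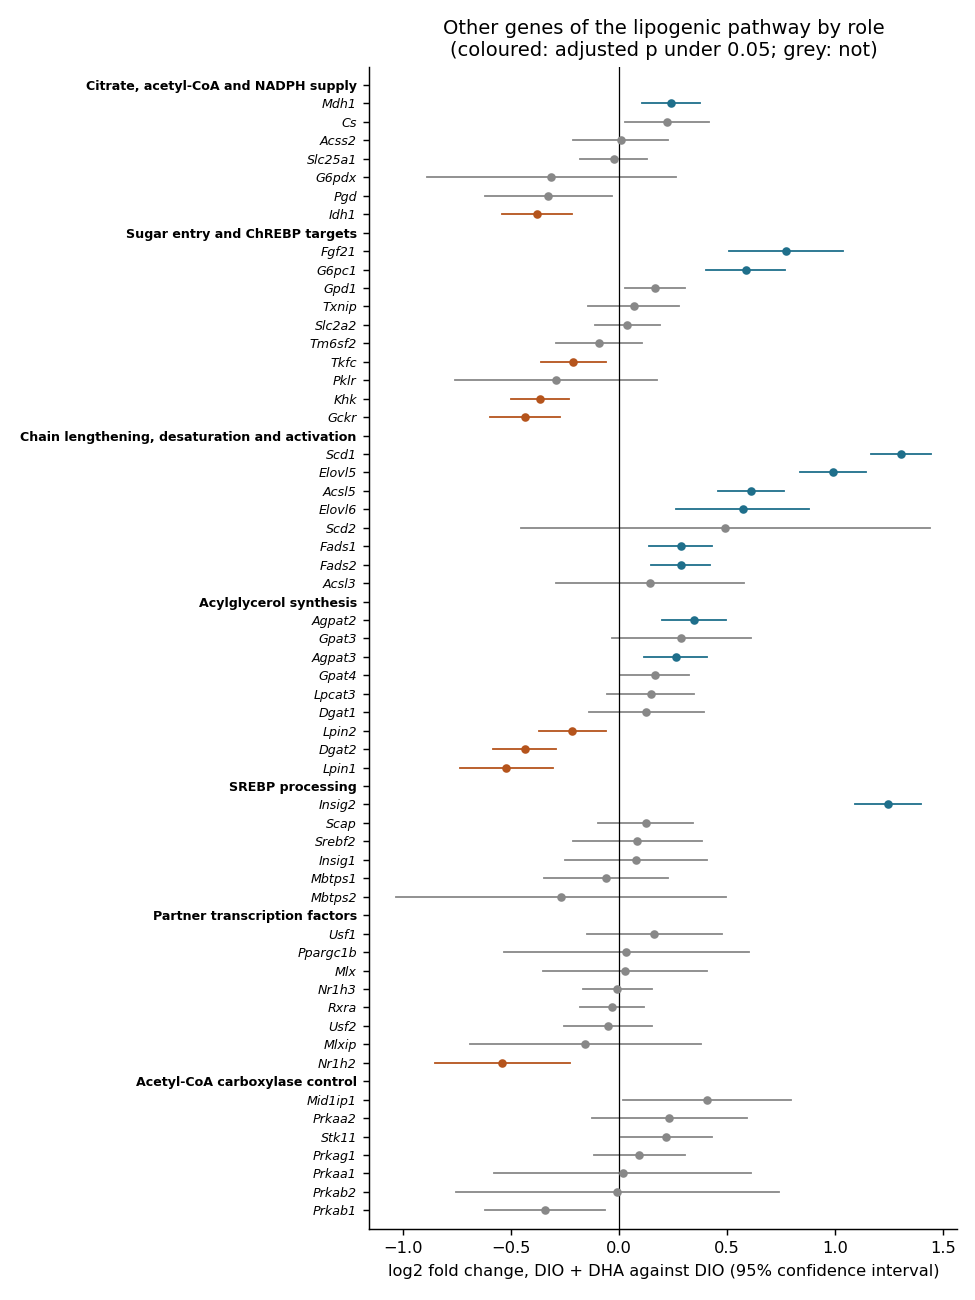
Log2 fold change of DIO + DHA over DIO (horizontal axis) for 55 other genes of the pathway, arranged by role, with points for the estimates, bars for the 95% confidence intervals and colour for genes that passed the test. Scd1 (1.30) and Insig2 (1.24) lie at the upper end, and Nr1h2 (-0.54) and Lpin1 (-0.52) at the lower.

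Of 8 genes of chain lengthening, desaturation and activation, 6 rose and 0 fell (edgeR), with 6 higher and 0 lower also at an unadjusted p under 0.05 and by DESeq2, and 3 higher with limma-voom at B above 0. The median log2 fold change was 0.53. Scd1, stearoyl-CoA desaturase, which puts the double bond into newly made saturated fatty acids, was at 353, 369 and 383 CPM in the DIO mice and at 942, 986, 866, 909 and 856 CPM in the DIO + DHA mice. All DIO + DHA mice lay above all DIO mice, and the log2 fold change was 1.30 (SE 0.07, edgeR adjusted p = 6.93e-23). Elovl5, an elongase of polyunsaturated fatty acids, rose by 0.99 on the log2 scale, with 196 ± 18.5 CPM (SD) in the 3 DIO mice and 386 ± 27.1 CPM (SD) in the 5 DIO + DHA mice. Acsl5, which activates fatty acids to acyl-CoA, rose by 0.61, from 156 to 238 CPM. The delta-6 desaturase gene Fads2 rose by 0.29, from 394 to 481 CPM, and Elovl6, which lengthens palmitate, rose by 0.57, from 13.6 to 20.0 CPM. Fads1 was the other called gene. Scd1 is abundant in adipocytes as well, and the adipocyte sums given above differed between the groups in the same direction, and their part in its rise was not tested.

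Of 12 genes of sugar entry and ChREBP targets, 3 rose and 4 fell. Gckr fell by 0.43 on the log2 scale, from 160.1 to 118 CPM, and Khk, ketohexokinase of fructose metabolism, fell by 0.37, from 750 to 583 CPM. Tkfc, triokinase of the same route, fell by 0.21, but the groups overlapped and the call was lost in 10 of 18 alternatives. G6pc1, glucose-6-phosphatase, rose by 0.59, from 53.7 to 80.4 CPM, and Fgf21, a hormone of the fasted and fat-fed liver, rose by 0.77, from 20.0 to 35.1 CPM.

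Of 9 acylglycerol synthesis genes, 2 rose and 3 fell. Dgat2, which adds the last acyl chain to triglycerides, fell by 0.44 on the log2 scale, from 353 to 262 CPM, and Lpin1, a phosphatidate phosphatase, fell by 0.52, from 56.7 to 39.1 CPM. Agpat2, the acyltransferase that follows Gpam in the route, rose by 0.35, from 204 to 262 CPM. Agpat3 was the other gene that rose. Lpin2 was called lower, a call lost in 13 of 18 alternatives.

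Of 7 genes supplying citrate, acetyl-CoA and NADPH, Mdh1 rose and Idh1 fell, the latter by 0.38 on the log2 scale from 247 to 189 CPM. Of 6 SREBP processing genes, Insig2, an anchor of SREBP in the endoplasmic reticulum, rose by 1.24 on the log2 scale: it was at 155, 176 and 162 CPM in the DIO mice and at 400.5, 408, 385, 346 and 419 CPM in the DIO + DHA mice (edgeR adjusted p = 3.77e-20). Its relative Insig1, a target of SREBP, had means of 41.4 ± 13.4 CPM (SD, n = 3) and 41.1 ± 5.70 CPM (SD, n = 5), with a log2 fold change of 0.08 (95% CI -0.25 to 0.41; edgeR adjusted p = 0.820). Of 8 partner transcription factors, Nr1h2, the liver X receptor beta, fell by 0.54, from 18.9 to 13.1 CPM (edgeR adjusted p = 0.0111), a call lost in 5 of 18 alternatives. The liver X receptor alpha gene Nr1h3 (-0.01, edgeR adjusted p = 0.970) and Mlx (0.03, adjusted p = 0.945), the partner of ChREBP, did not pass, and their sign changed in some alternatives. Of 7 genes that control acetyl-CoA carboxylase, 0 passed with edgeR, with 2 higher and 1 lower at an unadjusted p under 0.05, and 0 by DESeq2 or limma-voom.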

How the data were processed

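Poly(A) RNA of 8 livers, 3 DIO and 5 DIO + DHA, was measured with 1 library per mouse, and groups came from the labels. The authors made 3′-enriched cDNA with sample barcodes and unique molecular identifiers, checked them with FastQC 0.11.8, aligned them with STAR 2.7.9a to GRCm39 and assigned them to exons of the mouse GENCODE release 33 with featureCounts 1.6.0 (versions per the submitters' processing notes). The deposited values are raw counts, in whole numbers. Reads were counted without strand and only if uniquely aligned, and those that lay in more than 1 gene were dropped. Names came from GENCODE release 39, which held 56323 of 56884 identifiers.

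Following the study's filter, genes under 5 counts in over 50% of both groups' libraries were dropped, and 12412 remained. After TMM scaling, edgeR 4.0.16 (R 4.3.3) fitted its robust quasi-likelihood F test with Benjamini-Hochberg adjustment, which was first tested on simulated data. SEs and 95% intervals were derived from the F statistic. Alternatives used DESeq2 1.42.0 and limma 3.58.1 (limma-voom, also with a log-odds B above 0, the study's threshold, here at a prior proportion of 0.01), other scalings and filters, the replicate number as a block and leaving out each library.

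The members and lists were chosen with earlier results of these data known. Pathway genes named are up to 8 higher and up to 8 lower called ones with the smallest p, and Scd1, Insig1, Insig2, Mid1ip1, Nr1h3 and Mlx in any case, and of a marker or clock list the 2 of largest mean CPM. Cfd, Plin1, Plin4, Lipe, Marco, Mdh1, Elovl6, Fads1, Agpat3 and Lpin2 were named after their values were seen. For 2 genes of the pathway list, kept in its counts, and for 1 promoter, values are not reported here. Counting errors and floors of 3 counts cover counting error only. Promoters were read from GRCm39, and protein sequences were not used here.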

Additional observations from a re-analysis of the deposited data

Results flagged for a closer look

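In the 5 DIO + DHA mice, 29 genes were screened for a mouse far from the others, and 1 gene stood out. Chance alone flags about 1 in 20 such genes, and all 29 were measured in the same mice. Mlx, which encodes the partner of ChREBP, was at 12.9 CPM in DIO + DHA replicate 1, below the other DIO + DHA mice, of which the lowest was at 18.7 CPM and the highest at 21 CPM. The gap was 0.724 of the range of the group, above the critical value of 0.71 for 5 samples. In the DIO group Mlx was at 16.9, 24.3 and 12.6 CPM, so the low DIO + DHA mouse lay within the DIO range.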

How the results depend on the processing

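Small differences on the log2 scale are hard to call at this depth with 3 DIO mice. Of 162 refits of the 9 tested members, 153 kept direction and side of the threshold, 6 lost a call, 2 gained one and 1 changed sign. The number of members higher was 1, and it was 0 with the Wald test of DESeq2 and 0 with limma-voom at B above 0 (2 were higher at an unadjusted p under 0.05 with each of these and with edgeR, and 1 was called by limma-voom at an adjusted p under 0.05); leaving out 1 library gave 0 to 1, with 0 without DIO replicate 4, DIO + DHA replicate 1 or DIO + DHA replicate 5, and without DIO replicate 1 Fasn (log2 fold change 0.306) gave way to Gpam. The number lower was 1, and 1 to 2 on leaving out 1 library, with 2 without DIO + DHA replicate 6, where Mlxipl was added. The number of other pathway genes higher was 13, and 8 with limma-voom at B above 0. The number lower was 9, and 6 with DESeq2, with limma-voom at B above 0, without DIO replicate 4 and without DIO replicate 5. Of 360 refits of the 20 named pathway genes, 334 kept direction and side, 16 lost a call and 10 changed sign, none of the last with a call. The replicate numbers 1, 4 and 5 occur in both groups. The correlation of the deviations of same-numbered mice was -0.0191 to -0.00863, and none of the 3 DIO mice correlated best with its own number. These values gave no sign that the numbers pair the mice. They cannot exclude a pairing, since counting error also enters the deviations. With the replicate block 1538 genes were called against 1883, the members had 1 higher and 1 lower, and the calls of Nr1h2 and Lpin2 were lost. Under the block the log2 fold change of Acly was 0.008, of Insig1 -0.005 and of Nr1h3 0.02, each of the opposite sign. On leaving out 1 library, Insig1 lay between -0.152 and 0.252, Nr1h3 lay between -0.043 and 0.103 (0.013 and 0.015 on leaving out replicates 1 and 2 of DIO + DHA) and Mlx between -0.233 and 0.422 (-0.011, -0.014 and -0.034 on leaving out replicates 2, 4 and 6 of DIO + DHA). The cause of these changes was not tested. Over all genes the split of higher to lower calls was 979 to 904, and it was 904 to 961 with library size alone, 877 to 888 with the filterByExpr filter and 665 to 751 with at least 10 counts in every library.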
